A study of Mus musculus with 96 samples.

Results

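The neurons described here are 30 main somatosensory neurons of the mouse geniculate ganglion, divided by their level of Htr3a, which encodes the A subunit of the ionotropic serotonin receptor 5-HT3. They are 30 of the 96 single neurons sequenced. A neuron was taken as main somatosensory when its Fxyd2 was at least 300 FPKM and its Kcns3 at least 60 FPKM. FPKM is fragments per kilobase of transcript per 1000000 mapped reads, a level that is scaled for transcript length. Neurons with Htr3a at 20 FPKM or more were called Htr3a-high (13 neurons, 8 from chip 1 and 5 from chip 3), and neurons below 20 FPKM were called Htr3a-low (17 neurons, 7 from chip 1 and 10 from chip 3). All the neurons came from C57Bl/6J mice of both sexes, 8 to 12 weeks old, with no treatment or genetic change. Ganglia of several mice were pooled for each of 2 cell suspensions, made on separate days, and each suspension was captured on its own microfluidic chip, named 1 and 3 in the labels. Each neuron gave 1 full-length cDNA library. Neurons of 1 chip share a suspension, so the chip was the replicate (n = 2) and reads were summed over the neurons of each class and chip, giving 4 sums.

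The 5-HT3 receptor is a cation channel made of subunits around a central pore and opened directly by serotonin. The A subunit can form a channel by itself, whereas the B subunit, encoded by Htr3b, works only together with A and changes the conductance and kinetics of the channel. In sensory ganglia these receptors depolarise the afferent neuron when serotonin is released nearby, and in the geniculate ganglion the somatosensory neurons serve the skin of the outer ear.

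The rule used Fxyd2, Kcns3 and Htr3a, and their values are given only as a description. Fxyd2, a regulator of the sodium pump, ran from 354 to 11348 FPKM among the members, where the lowest member was a Htr3a-low neuron of chip 3 and the second lowest member had 2545 FPKM. The highest value below the Fxyd2 limit was 126 FPKM. A single neuron, on chip 1, passed the Fxyd2 limit with 880 FPKM and was left out because its Kcns3, a modifying subunit of potassium channels, was 29.6 FPKM. The lowest Kcns3 of a member was 62.2 FPKM. Htr3a went from 21.6 to 187 FPKM (median 91.7) in the Htr3a-high class and from 0.599 to 17.9 FPKM (median 3.80) in the Htr3a-low class. The members therefore spanned a 313-fold range of Htr3a with no wide gap at the limit, and 6 of the 30 lay from 10 to under 40 FPKM. Htr3a at 20 FPKM or more was also seen in 36 of the 66 other neurons.

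The label was set beside genes that the rule did not use, which were named after their values were seen. The somatosensory markers Pou4f2, Pdlim1 and Mef2c are not among them. Pou4f1, Prrxl1 and Tlx3, transcription factors of somatosensory neurons, were at 1 FPKM or more in 30 of 30 members, and Ldb2, a cofactor of such factors, ranged from 22.4 to 94.1 FPKM. Nefh, the heavy neurofilament chain of large myelinated neurons (57.5 to 162 FPKM), Ntrk2, the receptor of brain-derived neurotrophic factor (35.7 to 92.6 FPKM), and Fam38b, the older symbol of the mechanically gated channel Piezo2 (20.6 to 45.3 FPKM), were present in every member. Trpv1, the heat and capsaicin channel of nociceptors, was listed at 0 in all 30. Other nociceptor markers were detected, and their summed levels are given below. No member lacked the somatosensory genes named here. Genes named after their values were seen, with the listed markers Pou4f2, Pdlim1 and Mef2c left out, cannot test the label.

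Depth overlapped between the classes. Read counts per neuron on the chosen transcripts ran from 708678 to 2232980 (median 1621462) in the Htr3a-high class and from 654586 to 2205895 (median 1663190) in the Htr3a-low class. The number of genes with FPKM above 0 ranged from 10350 to 10873 (median 10611) and from 10047 to 11014 (median 10413). The classes differed in transcripts linked to the sex of the mouse. Xist, which is transcribed from the inactive X chromosome, was at 0.5 FPKM or more in 7 of 13 Htr3a-high and 2 of 17 Htr3a-low neurons, and the Y-linked Eif2s3y was at 1 FPKM or more in 6 of 13 and 16 of 17. On chip 3, all 10 Htr3a-low neurons carried Eif2s3y against 2 of 5 Htr3a-high neurons. A Htr3a-low neuron of chip 1 held both, with Xist at 6.29 FPKM and Eif2s3y at 6.59 FPKM. The part of the source animals in the differences below was not tested, and values over the neurons with Eif2s3y and no Xist (6 Htr3a-high and 15 Htr3a-low) are given for Htr3b, Hpca and Ctxn3 and for other genes nearest to the threshold whose value moved by over 1.5 times.

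In the edgeR quasi-likelihood test of the 4 sums, Htr3a left out, 0 of 12187 genes were called higher (0%) and 0 lower (0%) in the Htr3a-high class. A call needed a difference of 2-fold or more with an adjusted p under 0.05. At an unadjusted p under 0.05 there were 596 genes (4.89%), of which 290 were higher (2.38%) and 306 lower (2.51%). The same rule in DESeq2 called 16 of 11920 genes (0.134%), 9 higher and 7 lower, and edgeR without a filter on low counts called 13, of which 11 were also called by DESeq2. A total of 1377 genes differed by at least 2-fold between the class means, but only 16 of these were among the 5199 genes with an average of at least 5 on the log2 CPM scale, where CPM is counts per 1000000 counts. The median standard error of a log2 fold change was 0.38 over all genes tested and 0.22 over those 5199. The genes below are therefore the nearest to the threshold, and none of them passed it in the main test.

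**Figure D1:**
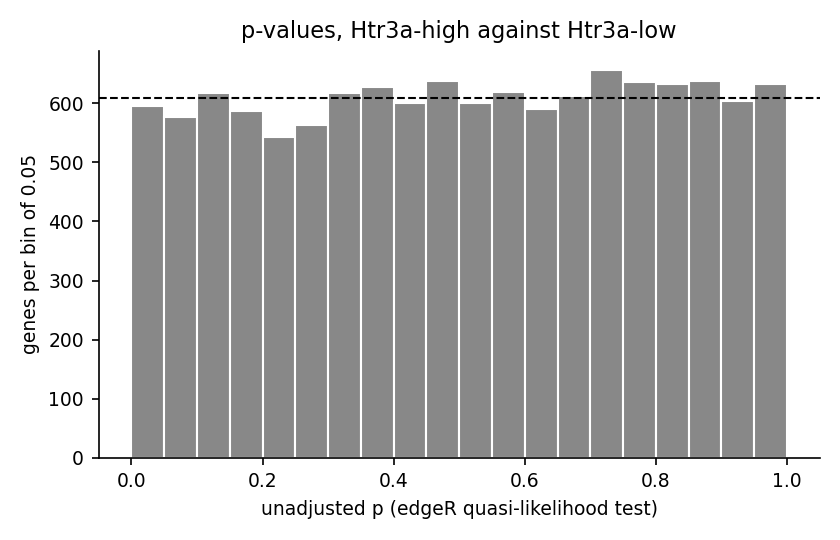
The number of genes (vertical axis) in each 0.05-wide bin of the unadjusted edgeR p (horizontal axis), with a dashed line at the number per bin if p were spread evenly over the 12187 genes. The first bin holds 596 genes, 4.89% of the total, and no excess stands at the left end.

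Htr3b was the nearest to the threshold among the serotonin genes. It was detected in all 30 members and in 32 of the 66 other neurons. Htr3b ran from 7.71 to 56.7 FPKM (median 40.3) in the 13 Htr3a-high neurons and from 0.151 to 37.2 FPKM (median 14.3) in the 17 Htr3a-low neurons. The classes overlapped, although 7 Htr3a-high neurons lay above every Htr3a-low neuron and all 17 Htr3a-low neurons lay below the Htr3a-high median. The mean of the chip means was 35.6 ± 6.08 FPKM (SD, n = 2 chips) in the Htr3a-high class and 16.3 ± 2.22 FPKM in the Htr3a-low class. In the sums Htr3b stood at 111 and 141 CPM in the Htr3a-high class and at 60.5 and 47.0 CPM in the Htr3a-low class, on chips 1 and 3, so the sums did not overlap. The log2 fold change was 1.23 ± 0.22 (SE), with 0.87 on chip 1 and 1.58 on chip 3, and an adjusted p of 0.971 in edgeR. By its unadjusted edgeR p, 0.00076, Htr3b had rank 6 among the genes tested. DESeq2 gave an adjusted p of 0.00224 and edgeR without the filter on low counts 0.00854, so the call rests on the tool and the filter. Over the neurons with Eif2s3y and no Xist the log2 fold change was 1.51.

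**Figure D2:**
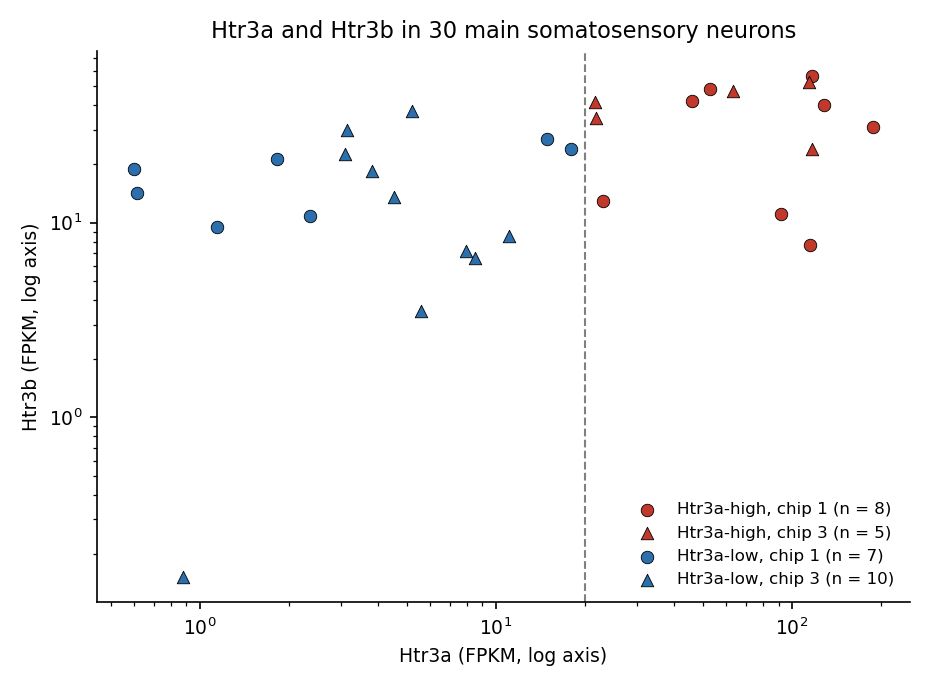
Htr3b against Htr3a in each of the 30 neurons, in FPKM on log axes, with red for Htr3a-high, blue for Htr3a-low, circles for chip 1, triangles for chip 3 and a dashed line at the Htr3a limit of 20 FPKM. The Htr3a-high neurons range from 7.71 to 56.7 FPKM of Htr3b and the Htr3a-low neurons from 0.151 to 37.2 FPKM.

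Pearson's r of log2(FPKM + 1) between the 2 genes was 0.48 over the 30 neurons, 0.42 over the 15 neurons of chip 1 and 0.59 over the 15 of chip 3. It was -0.03 within the 13 Htr3a-high neurons and 0.20 within the 17 Htr3a-low neurons, but the classes were cut on Htr3a, so each holds a narrower range of it and its r cannot be set beside that of the 30. By its r over the 30 neurons, Htr3b had rank 88 among the 10576 tested genes detected in at least 15 of them. The highest Htr3a (187 FPKM) came with 31.0 FPKM of Htr3b, and a neuron with 115 FPKM of Htr3a had the lowest Htr3b of its class. Over the 66 other neurons r was 0.61, but these mix gustatory and further somatosensory cells, and only 32 of them had Htr3b above 0. All values of r here are descriptions over neurons that share 2 suspensions, and no p is given for them.

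Htr3a and Htr3b are neighbours on the same strand. In the build mm9, which the files use, Htr3a lies on the minus strand of chromosome 9 from 48707318 to 48719204 and Htr3b from 48743113 to 48773095. The lowest coordinate of Htr3b is 23909 above the highest of Htr3a. The 250 bases before each annotated transcript start are shown because the 2 subunits form 1 receptor and their levels were compared above. They were read from the mm9 genome at chr9:48719205-48719454 and chr9:48773096-48773345, minus strand, 5′ to 3′, with motif letters in capitals.
Htr3a: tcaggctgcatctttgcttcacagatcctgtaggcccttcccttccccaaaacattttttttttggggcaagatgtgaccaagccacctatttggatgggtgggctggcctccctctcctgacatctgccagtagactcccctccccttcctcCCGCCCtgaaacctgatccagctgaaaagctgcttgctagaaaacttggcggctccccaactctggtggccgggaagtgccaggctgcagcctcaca
Htr3b: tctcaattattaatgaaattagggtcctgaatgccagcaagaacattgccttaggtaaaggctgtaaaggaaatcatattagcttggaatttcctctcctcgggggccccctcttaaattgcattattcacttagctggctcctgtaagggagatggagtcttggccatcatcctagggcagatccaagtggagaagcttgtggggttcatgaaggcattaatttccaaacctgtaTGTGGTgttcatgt
The Htr3a window was 56% G and C and the Htr3b window 44%. Of 5 motifs searched on both strands, the Htr3a window held 1 GC box (GGGCGG, here on the opposite strand), which 53.4% of 17196 windows of this length hold, and the Htr3b window held 1 RUNX core (TGTGGT), which 10.9% hold. Neither window held TATAAA (7.95% of windows), CACGTG (7.59%) or CCAAT (35.2%), and the capitals do not overlap. Such matches are letters in a window and were not tested as binding sites.

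The other serotonin genes had overlapping levels in the 2 classes. Of the 20 genes in the list of serotonin receptors and handling, 19 were in the tables, 11 were tested and 0 were called in either direction by edgeR's main test, whereas DESeq2 and edgeR without the filter called 1, Htr3b. At an unadjusted p under 0.05, 2 were higher and 0 lower, against 2.38% of all genes higher and 2.51% lower. The median log2 fold change was 0.22 over the list and 0.00 over all genes tested. The 2 were Htr3b and Maoa, the mitochondrial enzyme that breaks down serotonin, which ran from 13.3 to 47.2 FPKM (median 24.2) in the Htr3a-high class and from 7.10 to 34.4 FPKM (median 18.9) in the Htr3a-low class. The classes overlapped for Maoa and its log2 fold change was 0.57 ± 0.16 (SE, adjusted p = 0.971, edgeR).

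The G protein-coupled serotonin receptors were led by Htr1d, the receptor that triptans act on. Htr1d ranged from 14.7 to 80.9 FPKM (median 50.1) in the Htr3a-high class and from 30.7 to 67.2 FPKM (median 45.6) in the Htr3a-low class, with a log2 fold change of 0.01 ± 0.20 (SE). Htr5b, a receptor whose human counterpart is not functional, had medians of 7.32 and 7.0 FPKM, and Htr7, which raises cyclic AMP, had 5.64 and 4.6 FPKM. The classes overlapped for all 3 receptors. Htr1b, Htr2b, Htr4 and Htr5a were seen at 1 FPKM or more in 1 to 5 neurons of a class. Htr1a, Htr2a, Htr6 and the serotonin transporter Slc6a4 were listed at 0 in all 30 neurons. Htr1f and Tph1 reached 1 FPKM in 1 Htr3a-low neuron each, and Ddc, the decarboxylase that completes serotonin synthesis, did not exceed 0.207 FPKM. Tph2, the neuronal enzyme that starts serotonin synthesis, reached 1 FPKM in 4 Htr3a-high neurons (highest 10.0 FPKM) and 1 Htr3a-low neuron, with an adjusted p of 1.00 in edgeR. Maob, the sister enzyme of Maoa, had medians of 5.79 and 3.70 FPKM.

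The chaperones that assemble this receptor family had overlapping levels. Ric3, a chaperone of 5-HT3 and nicotinic receptors, had medians of 11.3 and 8.54 FPKM in the Htr3a-high and Htr3a-low classes, and Tmem35, a second chaperone of nicotinic receptors, had 53.7 and 63.5 FPKM. Of 8 tested genes of this list 0 were called by edgeR's main test, and 0 had an unadjusted p under 0.05. Ly6h, a prototoxin that binds nicotinic receptors, had medians of 5.08 and 1.68 FPKM and a log2 fold change of 1.15 ± 0.66 (SE, adjusted p = 1.00, edgeR).

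Hpca, which encodes hippocalcin, a neuronal calcium sensor, set most neurons of the 2 classes apart. Hpca ran from 17.7 to 55.9 FPKM (median 38.5) in the Htr3a-high class and from 0 to 27.8 FPKM (median 3.43) in the Htr3a-low class. The ranges overlapped, with 10 of 13 Htr3a-high neurons above every Htr3a-low neuron and 13 of 17 Htr3a-low neurons below every Htr3a-high neuron. Its sums were 86.8 and 71.6 CPM in the Htr3a-high class against 25.3 and 12.2 CPM in the Htr3a-low class, a log2 fold change of 2.09 ± 0.37 (SE, adjusted p = 0.971, edgeR). Hpca shares its place in mm9 with Tmem54 on the other strand, and the libraries do not mark strand. Tmem54 stood at 3.73 and 4.27 CPM against 2.45 and 0.676 CPM, below Hpca in every sum. DESeq2 gave Hpca an adjusted p of 7.34e-05, and over the neurons with Eif2s3y and no Xist the log2 fold change was 1.89.

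**Figure D3:**
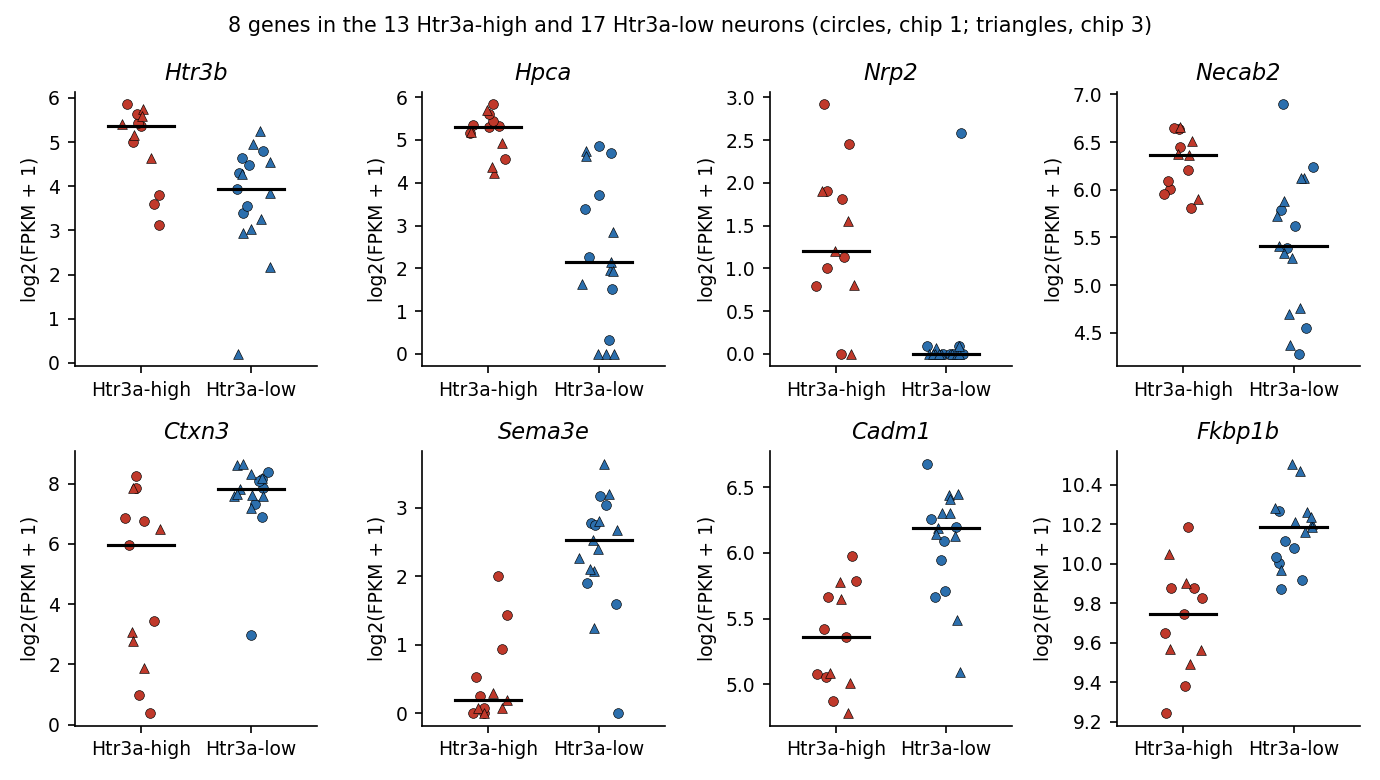
log2(FPKM + 1) of 8 genes (vertical axes, each with its own range) in the 13 Htr3a-high (red) and 17 Htr3a-low (blue) neurons, with circles for chip 1, triangles for chip 3 and a bar at the class median. Htr3b, Hpca, Nrp2 and Necab2 have the higher median in the Htr3a-high class and Ctxn3, Sema3e, Cadm1 and Fkbp1b the higher median in the Htr3a-low class, and in all 8 the classes overlap.

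Ctxn3, cortexin 3, a small membrane protein of neurons, had the lowest p in the other direction. It ran from 0.299 to 302 FPKM (median 61.6) in the Htr3a-high class and from 6.82 to 405 FPKM (median 228) in the Htr3a-low class. Only 3 Htr3a-high neurons exceeded the Htr3a-low median, and 4 lay below every Htr3a-low neuron. The sums were 233 and 173 CPM against 459 and 530 CPM, so that the log2 fold change was -1.29 ± 0.18 (SE, adjusted p = 0.595, edgeR), the lowest adjusted p of the test, shared with Zfp472 and Hsf2bp. With the Htr3a limit at 10 FPKM Ctxn3 was the single gene called, at -1.36 (adjusted p = 0.0332, edgeR), and over the neurons with Eif2s3y and no Xist the value was -1.77. With the limit at 50 FPKM Ctxn3 stood at -2.98 (adjusted p = 0.966, edgeR), and without the neurons from 10 to under 40 FPKM at -2.49 (adjusted p = 0.981, edgeR), neither of them called.

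Sema3e, a secreted semaphorin that signals through plexin D1, was low in the Htr3a-high class. It ran from 0 to 3.00 FPKM (median 0.142) there and from 0 to 11.5 FPKM (median 4.80) in the Htr3a-low class, where 16 of 17 neurons reached 1 FPKM against 2 of 13. In all, 13 Htr3a-low neurons were above every Htr3a-high neuron. One neuron supplied 55.2% of the Sema3e reads of the Htr3a-high class, and the log2 fold change was -3.35 ± 0.78 (SE, adjusted p = 0.971, edgeR). Serpinb1b, an intracellular protease inhibitor, had a median of 4.09 FPKM (0 to 8.12) against 12.9 FPKM (0 to 57.1). Gpx2, a glutathione peroxidase, had a median of 5.01 FPKM (0 to 11.3) against 15.6 FPKM (2.73 to 32.7). For these 2 genes, as for Sema3e, no Htr3a-high neuron exceeded the Htr3a-low median. Serpinb1b has close paralogs whose reads the counting could have split.

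The other genes that were nearest to the threshold with a higher level in the Htr3a-high class were mostly rare transcripts. Runx1, a transcription factor of non-peptidergic nociceptors, was at 1 FPKM or more in 8 of 13 Htr3a-high neurons (highest 3.83 FPKM) and 1 of 17 Htr3a-low neurons (2.04 FPKM). Its log2 fold change was 2.69 ± 0.58 (SE, adjusted p = 0.971, edgeR). Ldoc1l (11 of 13 against 7 of 17 neurons at 1 FPKM or more), Slc25a32, a mitochondrial folate carrier (9 against 5), Gcn1l1, which activates a stress kinase of translation (9 against 5), and Itga9, an integrin chain (5 against 0), had log2 fold changes of 2.51, 2.24, 1.64 and 3.33, none called by edgeR's main test. DESeq2 called Ldoc1l (adjusted p = 0.0196), but with the Htr3a limit at 50 FPKM its log2 fold change was 0.38. Over the neurons with Eif2s3y and no Xist Gcn1l1 stood at 2.64. Their medians in the Htr3a-high class lay between 0.334 and 4.27 FPKM.

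A few genes had next to no reads in 1 class, and their folds rest on few neurons. Zfp472, a zinc finger gene of a large family with similar members, had 245 reads in the Htr3a-high class and 3 in the Htr3a-low class, a ratio of 103 (95% exact counting interval 35.0 to 505), with 6 neurons at 1 FPKM or more. Hsf2bp, a partner of heat shock factor 2 and of meiotic recombination proteins, had 299 reads against 0 and was at least 126-fold higher, taking 3 reads over the class as the floor, but only 2 neurons reached 1 FPKM and 1 gave 61.5% of the reads. Cckar, a cholecystokinin receptor, had 112 reads against 0 (at least 47.2-fold higher), from 3 neurons at 1 FPKM or more. In the other direction, Pld1, phospholipase D1, had 0 reads against 117 (at least 30.8-fold lower). 9030617O03Rik, Frrs1, a ferric reductase, and Pcdhb9, a clustered protocadherin, had 1 read against 233, 190 and 205, and Pcdhb9 drew 70.7% of its reads from 1 neuron and lies within a longer protocadherin entry. These intervals and floors cover counting error only. Zfp160 (2 of 13 against 9 of 17 neurons at 1 FPKM or more) and Ociad2 (medians of 2.45 and 8.19 FPKM) complete the set, with log2 fold changes of -2.81 and -1.64. Over the neurons with Eif2s3y and no Xist Zfp160 stood at -4.56, and Hsf2bp and 9030617O03Rik had too few reads to pass the filter there.

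**Figure D4:**
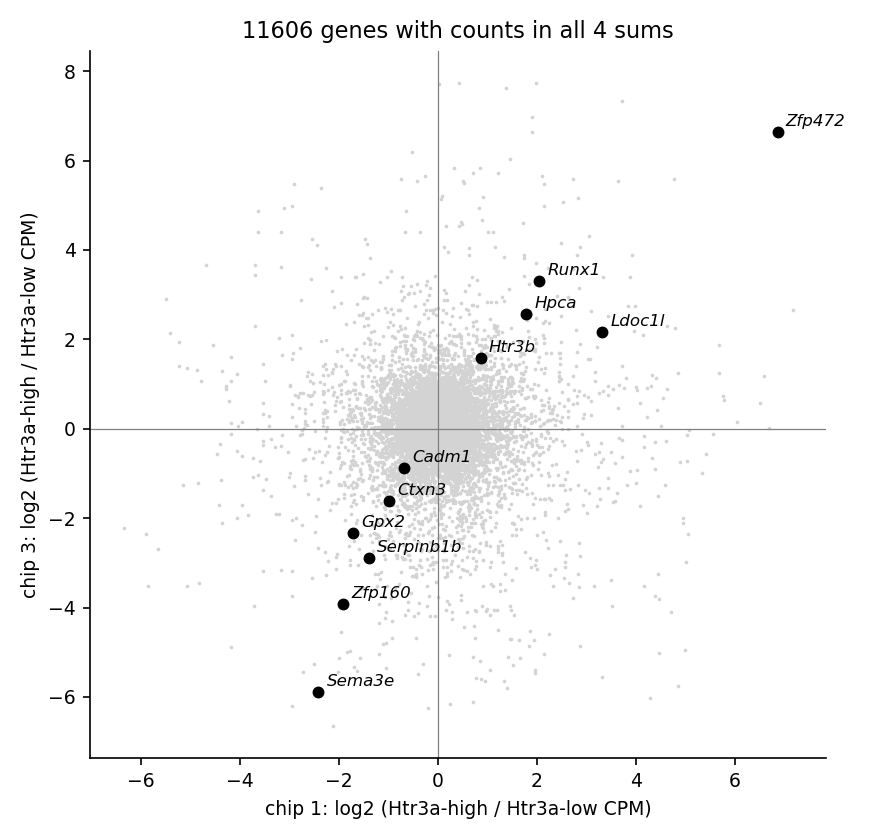
The log2 ratio of Htr3a-high to Htr3a-low CPM on chip 3 (vertical axis) against that on chip 1 (horizontal axis) for the 11606 genes with counts in all 4 sums, with 11 named genes in black. Htr3b lies at 0.87 and 1.58, Hpca at 1.78 and 2.56 and Ctxn3 at -0.98 and -1.62, and the other genes are shown in grey.

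Apart from the classes, each gene was compared with Htr3a over the 30 neurons on log2(FPKM + 1). Of 10576 tested genes that were detected in at least 15 of the neurons, the median r was 0.01 and the SD of r was 0.20, and 5607 had the same sign of r on both chips. There were 15 genes with r of 0.6 or more and 12 with -0.6 or less. Htr3a itself had r = -0.04 with the log2 read count of the neuron and r = 0.44 with the number of genes detected, and the part of that relation in the values below was not tested.

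Nrp2, neuropilin 2, a co-receptor of class 3 semaphorins, had the highest r, 0.76 (0.70 on chip 1 and 0.89 on chip 3). It reached 1 FPKM in 9 of 13 Htr3a-high neurons (highest 6.55 FPKM) and in 1 of 17 Htr3a-low neurons (5.00 FPKM), and also followed Htr3a inside the Htr3a-high class (r = 0.67). That single Htr3a-low neuron supplied 93.8% of the Nrp2 reads of its class, and with 17.9 FPKM of Htr3a it lay nearest to the limit. It also had the lowest Ctxn3 and Fkbp1b of its class (6.82 and 936 FPKM), no Sema3e, and the highest Necab2 (118 FPKM). Ckb, brain creatine kinase, followed with r = 0.69, at 275 to 425 FPKM (median 321) against 177 to 321 FPKM (median 254). Eno2, the neuronal enolase of glycolysis (r = 0.64), had medians of 190 and 156 FPKM. All 13 Htr3a-high neurons were above the Htr3a-low median for both Ckb and Eno2, with log2 fold changes of only 0.34 and 0.36.

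Cyp2j9, a cytochrome P450 with close paralogs (r = 0.66), Hpca (0.65), Tsc22d1, a leucine zipper regulator (0.63), Klhl25, an adaptor of a ubiquitin ligase (0.63), Arhgef19, a guanine nucleotide exchange factor (0.61), and Pigs, a subunit of the enzyme that attaches GPI anchors (0.61), were also among the 10 highest. Pigs had medians of 30.9 and 18 FPKM, and 8 Htr3a-high neurons exceeded every Htr3a-low neuron.

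At the other end, Fkbp1b, an immunophilin that binds ryanodine receptors, had r = -0.75. It is an abundant transcript and ran from 605 to 1166 FPKM (median 858) in the Htr3a-high class and from 936 to 1453 FPKM (median 1165) in the Htr3a-low class. For Fkbp1b 8 neurons of each class lay outside the range of the other, and r was -0.66 within the Htr3a-high class but -0.04 within the Htr3a-low class. Cadm1, a synaptic adhesion molecule (r = -0.65), had medians of 40.1 and 72.0 FPKM, with no Htr3a-high neuron above the Htr3a-low median. Its log2 fold change was -0.78 ± 0.13 (SE, adjusted p = 0.971, edgeR), under the 2-fold limit, and DESeq2 gave an adjusted p of 0.000195. Fgf12, an intracellular fibroblast growth factor homologue that modulates sodium channels (r = -0.66), had medians of 81.2 and 122 FPKM and a log2 fold change of -0.58.

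Sema3e (r = -0.74), Ctxn3 (-0.72) and Gpx2 (-0.62) were among the 10 lowest as well as among the genes nearest to the threshold. The remaining ones were Txn1, thioredoxin (-0.72), Glo1, which detoxifies methylglyoxal (-0.68), Steap3, an endosomal ferrireductase (-0.68), and Parp11 (-0.66). Medians were 370 and 437 FPKM for Txn1 and 104 and 128 FPKM for Glo1 in the Htr3a-high and Htr3a-low classes.

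**Figure D5:**
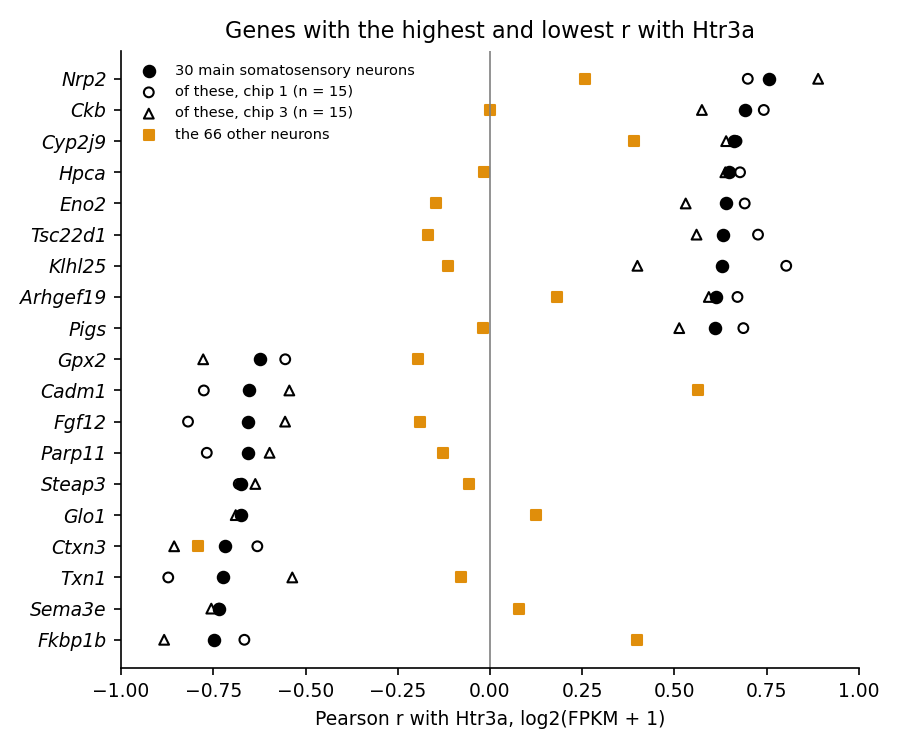
Pearson's r with Htr3a on log2(FPKM + 1) (horizontal axis) for genes among the 10 highest and 10 lowest (vertical axis), with filled circles for all 30 neurons, open circles for chip 1, open triangles for chip 3 and orange squares for the 66 other neurons. The genes were chosen by the filled values, and among the other neurons Ctxn3 stands at -0.79, Cadm1 at 0.56 and Fkbp1b at 0.40.

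The 66 other neurons did not choose these 20 genes, and most of the values there were smaller. Ctxn3 kept a strong negative r of -0.79. Cadm1 (0.56) and Fkbp1b (0.40) had the opposite sign, and Hpca (-0.02), Ckb (0.00) and Sema3e (0.08) lay near 0. The other neurons hold gustatory and further somatosensory cells with Htr3a from 0.235 to 1074 FPKM, so that these values mix differences between cell types.

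Markers of somatosensory type overlapped between the classes. Of the 36 markers of myelinated mechanoreceptors and proprioceptors, 35 were in the tables, 29 were tested and 0 were called by edgeR's main test. At an unadjusted p under 0.05, 4 were higher and 0 lower, against 2.38% of all genes higher and 2.51% lower. The median log2 fold change of the list was 0.08. The 4 were Necab2, a neuronal calcium-binding protein, Cacna1h, a low-threshold calcium channel, Nefl, the light neurofilament chain, and Spp1, osteopontin. Necab2 ran from 54.9 to 99.8 FPKM (median 81.4) against 18.4 to 118 FPKM (median 41.5), and 12 of 17 Htr3a-low neurons lay below every Htr3a-high neuron. Its log2 fold change was 0.73 ± 0.19 (SE, adjusted p = 0.971, edgeR). Ntrk2, Fam38b and Nefh had log2 fold changes of 0.28, -0.06 and 0.11. Of 24 tested genes in the list of somatosensory identity factors, 2 were higher, Runx1 and Pdlim1, and 0 lower at an unadjusted p under 0.05. The shares over all genes were 2.38% higher and 2.51% lower. Pou4f1, Isl1 and Tlx3 stood at -0.17, 0.15 and -0.02.

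The peptidergic nociceptor markers summed to a median of 168 FPKM in the Htr3a-high class and 170 FPKM in the Htr3a-low class, and the non-peptidergic ones to 89.8 and 79.5 FPKM. Of 7 tested peptidergic markers 1 was lower at an unadjusted p under 0.05, against 2.51% of all genes. It was Tac1, the substance P precursor, with medians of 2.37 and 7.29 FPKM. Of 6 tested non-peptidergic markers 1 was higher, Runx1, against 2.38% of all genes. Of 5 tested markers of C-fibre low-threshold mechanoreceptors 1 was lower, against 2.51% of all genes. It was Fam19a4, at 1 FPKM or more in 1 of 13 and 8 of 17 neurons. None of the 3 lists had a gene called by edgeR's main test, and single genes in lists this short are not read as results about the lists.

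Ion channels and receptors other than 5-HT3 gave no call in any of 7 lists in edgeR's main test, and DESeq2 called Grid1 (log2 fold change 5.46, adjusted p = 0.0367). Among 49 tested potassium channel genes, 4 were higher (Kcnma1, Kcnk13, Kcnh5 and Kcne3) and 3 lower (Kcnip4, Kcng4 and Kcnj10) at an unadjusted p under 0.05, against 4.89% of all genes in either direction, and the median log2 fold change was 0.05. Kcnma1, the large-conductance calcium-activated channel, had medians of 3.96 and 1.24 FPKM and a log2 fold change of 1.19, whereas Kcnip4, an auxiliary subunit of A-type channels, had medians of 1.62 and 5.32 FPKM and -1.84. Of 13 tested sodium channel genes 0 passed the unadjusted limit, of 10 calcium channel genes 1 (Cacna1h), of 17 TRP, ASIC and HCN genes 1 (Trpc6), and of 10 purinergic receptors 1 (P2ry14). Among 12 ionotropic glutamate receptors 3 passed it, 2 higher (2.38% of all genes) and 1 lower (2.51%). These were the AMPA subunits Gria1 (medians of 2.70 and 1.17 FPKM, log2 fold change 1.02) and Gria2 (2.99 and 5.21 FPKM, -0.83), and Grid1, with 198 reads against 5 and 50.0% of the higher count from 1 neuron. Among 12 tested GABA receptor subunits 1 passed it.

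Genes of other cells and states gave no call in edgeR's main test either. The summed level of 15 markers of satellite glia and Schwann cells ran from 590 to 1353 FPKM (median 678) in the Htr3a-high class and from 470 to 1264 FPKM (median 641) in the Htr3a-low class, mostly from Pmp22 and S100b, which were above 100 FPKM in every neuron. Of the 12 that were tested, 1 was lower at an unadjusted p under 0.05, against 2.51% of all genes. It was Kcnj10, a potassium channel of satellite glia that reached 1 FPKM in 2 Htr3a-low neurons. The defining glial genes Erbb3 and Prx were listed at 0 in all 30 neurons, Sox10 reached 1 FPKM in 1, and Apoe, a lipid carrier abundant in glia, ran from 15.6 to 559 FPKM and from 5.03 to 455 FPKM. The 9 gustatory markers summed to 1.48 to 38 FPKM (median 10.2) and 2.87 to 97.5 FPKM (median 17.2). The 14 markers of immune, blood, fibroblast and endothelial cells summed to at most 36.4 FPKM, nearly all from alpha globin, whose 2 copies share reads. Of 19 tested immediate early genes 0 were higher and 1 lower (Fosl1) at an unadjusted p under 0.05, against 2.51% of all genes lower. Of 17 nerve injury and stress genes 0 were higher and 1 lower, again against 2.51% of all genes lower. The latter was Flrt3, an adhesion protein of regrowing axons, with medians of 0.108 and 5.65 FPKM. Among 10 general neuronal genes 1 was higher, against 2.38% of all genes. It was Syt1, the calcium sensor of vesicle release, with medians of 83.1 and 65.7 FPKM.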

How the data were processed

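Neurons were grouped by FPKM of Fxyd2, Kcns3 and Htr3a, as deposited. The gene set, lists and tests were chosen with earlier results of these data known. The authors trimmed reads with cutadapt 1.9.1, aligned them to mm9 with the RUM package (Bowtie and Blat), and deposited unnormalized read counts per transcript and FPKM for 1 chosen transcript per gene. The library total behind FPKM is not given in the sources used here. Of 17225 FPKM entries, 182 belong to 67 genes listed at several places, and their FPKM values were added. Libraries carried no molecular identifiers and no strand.

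Counts of the chosen transcripts were summed by class and chip, and tested with edgeR 4.0.16 in R 4.3.3 (TMM, filterByExpr, glmQLFit, glmQLFTest, Benjamini-Hochberg adjustment). Htr3a was left out of the library sums, and Htr3a, Fxyd2 and Kcns3 of the tests. DESeq2 1.42.0 and limma 3.58.1, on mean log2(FPKM + 1) or log2(FPKM + 0.1), were alternatives. The procedure was also run on simulated counts, whose changed genes left out those of low mean count. No rate from them is given here, and they are not used as support for the 0 calls. Neurons of 1 chip are not replicates, so p-values measure the spread between the 2 sums of a class. That spread mixes the suspensions with the sampling of few neurons, 5 to 10 in each sum. Per the labels, 2 suspensions were made on separate days, and the study's methods load each on its own chip, which pairs the sums of a chip, and the chip deviations of the 2 classes correlated at 0.03 across genes.

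Named genes were Htr3a, Htr3b, Fxyd2, Kcns3, the serotonin list, the 10 genes in each direction with the lowest p, at least 2-fold and the same direction on both chips (given as not called), and the 10 highest and 10 lowest r with the same sign on both chips. Genes of other lists named in the text passed an unadjusted p under 0.05 or mark a cell type. These and Ly6h, Tmem54 and the DESeq2 calls were chosen after their values were seen. Promoters were read from the NCBIM37 (mm9) genome. Pandas 2.3.3, numpy 2.4.6, scipy 1.17.1 and Python 3.11.15 were used. Some list members are not analysed here, and a few genes that the rules name are not reported here.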

Additional observations from a re-analysis of the deposited data

Results flagged for a closer look

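Reads, genes detected, Htr3b, Fxyd2 and Kcns3 were examined for a neuron far from the others in each of the 4 groups of class and chip, 20 sets of values in all. One stood apart by Dixon's gap criterion at the 95% level, a Htr3a-low neuron of chip 1 (site 17) with 3475 FPKM of Fxyd2, against a median of 9682 FPKM in its group of 7. Chance flags about 1 in 20 groups. Its Htr3a was 1.14 FPKM and its Htr3b 9.49 FPKM, both inside the range of its class.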

How the results depend on the processing

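The count of called genes was 0 in both directions under every alternative that was run except 3. DESeq2 called 9 genes higher and 7 lower, edgeR without a filter on low counts called 7 higher and 6 lower, and an Htr3a limit of 10 FPKM called 0 higher and 1 lower, Ctxn3. Under DESeq2 and without the filter Htr3b passed the threshold, with log2 fold changes of 1.23 (adjusted p = 0.00224) and 1.22 (adjusted p = 0.00854). The cause was not tested. The 11 genes called by both were Hpca, Hsf2bp, Htr3b, Ldoc1l, Ppp1r1a and Zfp472, higher, and 9030617O03Rik, Ctxn3, Pcdhb9, Sema3e and Serpinb1b, lower. DESeq2 alone added Cckar, Gad1, Grid1, Frrs1 and Pld1, and edgeR without the filter added Usp18 and Fxyd7. Other alternatives changed the size factors, the count minimum, the pseudocount of limma, the Htr3a, Fxyd2 and Kcns3 limits, the transcripts summed, the depth (thinned) and the neurons. Without the fold limit the edgeR counts stayed at 0. With the chip as a replicate block 0 genes were called, and Htr3b was at 1.23 (adjusted p = 0.933). The block changed no call. Over all alternatives the log2 fold change of Htr3b ran from 0.97 (Htr3a limit of 50 FPKM) to 1.51 (neurons with Eif2s3y and no Xist), and leaving out 1 sum gave 1.04 to 1.41, where the lone sum of a class is assumed to vary like the other class. Leaving out each of the 30 neurons in turn gave 1.14 to 1.37 for Htr3b, 0 called genes, and 528 to 634 genes at an unadjusted p under 0.05. Leaving out 1 sum gave 0 called genes and 408 to 1109 at an unadjusted p under 0.05, where 1109 (8.77%) came without the Htr3a-high sum of chip 1. The 20 genes nearest to the threshold kept their direction wherever they could be tested. For Hsf2bp this was 18 of 21 alternatives, for 9030617O03Rik and Pld1 19 and for Cckar 20. These genes were chosen for the same direction on both chips, and the alternatives mostly reuse the same neurons. Their kept direction was therefore largely set by the choice and is not separate support. The sizes of rare genes moved. With the Htr3a limit at 50 FPKM Hsf2bp went to 0.48, Zfp472 to 1.81, Ldoc1l to 0.38, Slc25a32 to 0.72 and Runx1 to 1.25, and with the limit at 10 FPKM 9030617O03Rik went to -2.58, Frrs1 to -2.47 and Sema3e to -1.87. Leaving out 1 neuron gave -4.49 to -2.63 for Zfp160, 2.52 to 3.64 for Runx1 and 2.51 to 3.80 for Itga9. The alternatives without shallow neurons, without single neurons and by sex-linked transcripts (Eif2s3y, or Ddx3y) were chosen after seeing the data. With 2 chips a class, the median SE of 0.38 limits what could be called, and a change that missed the threshold is not shown to be absent.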
